A study of Arabidopsis thaliana with 20 samples.

Results

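Shoots of Arabidopsis thaliana kept in darkness for 24 h were compared with shoots kept in darkness for 7 h. The comparison used 4 arrays of the 20 in the series, chosen by their titles: 2 labelled as 24 h dark control shoots and 2 labelled as 7 h dark control shoots. No array of shoots harvested in the light entered it. All 4 held whole shoots of the Columbia accession Col-0, a wild type, from soil-grown rosette plants with 9 to 10 leaves raised at 20 °C under a 9 h photoperiod of 200 μmol m-2 s-1. The plants stood in air, unsubmerged, in the same dark chamber that held the submerged plants. The study measured the transcript response to submergence in shoots and roots at both times, with darkness in air and light as controls, and had 2 independent replicate experiments per group. A whole shoot contains many cell types, so fewer cells of a type and less RNA per cell cannot be told apart. The labels do not say how many plants entered each sample.

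The 2 harvests differed in the length of darkness and in the hour of the day, and these 2 differences cannot be told apart here. Submergence began 2 h into the light period. If darkness began at the same hour, the 7 h harvest fell 9 h after lights on, at the usual end of the light period, and the 24 h harvest fell 2 h into what would have been the next light period. The start hour is given for the submerged pots and not separately for the dark ones.

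Several processes of a rosette change over such an interval. The circadian clock, a loop of transcription factors that repress one another, keeps its rhythm in darkness and sets the hour at which many transcripts peak. Leaves store part of their daytime carbon as starch and use it up in the night, and when the night is prolonged they enter carbon starvation, known for induction of protein, lipid and amino acid breakdown. Chlorophyll synthesis depends on light, because the step from protochlorophyllide to chlorophyllide in flowering plants requires it. Many photosynthesis genes depend on light as well.

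RNA was measured on Affymetrix ATH1 arrays, whose probe sets each report 1 transcript or a small group of them. The deposited values were log2 expression values, so a difference of 1 equals a 2-fold change. They ranged from 2.83 to 15.02 over the 16 darkened and submerged arrays, whose medians lay between 6.13 and 6.34. Replicate arrays correlated at r = 0.9955 (7 h) and r = 0.9958 (24 h) across probe sets, and arrays of different times at r = 0.9814 to 0.9825. The shoot label was borne out by the measured markers. The summed level of 3 shoot markers (the Rubisco activase gene RCA, the chlorophyll synthesis gene PORB and STOMAGEN, which encodes a mesophyll signal for stomata) was 13.1 to 14.0 on the log2 scale in dark shoots and 7.29 to 8.00 in dark roots. In shoots it was 13.88 to 13.98 at 7 h and 13.12 to 13.14 at 24 h. At 24 h 2 of the 3, RCA and PORB, were called lower, beside 9.22% of all genes. The summed level of 4 root markers was 9.24 to 9.62 in dark shoots and 13.3 to 13.8 in dark roots. None of the root markers was called in dark shoots by limma (1 higher at an unadjusted p under 0.05). The root marker AT3G01190 read 4.49 and 5.90 at 7 h and 6.16 and 4.64 at 24 h, so its replicates lay further apart than its time points.

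Of 22746 probe sets tested, 4479 (19.7%) differed between 24 h and 7 h at an adjusted p under 0.05. Of these, 2172 (9.55%) were higher and 2307 (10.1%) lower at 24 h. The test was limma's moderated test with Benjamini-Hochberg adjustment over all probe sets, and it used the spread of 8 groups of 2 arrays. Changes of at least 2-fold numbered 314 upward and 379 downward, and changes of at least 4-fold numbered 42 upward and 40 downward. The median change over all probe sets was 0.02, with quartiles of -0.17 and 0.19. Leaving out 1 array reduced the count to 2728 (without replicate 2 at 24 h), 2954 (without replicate 2 at 7 h), 2970 (without replicate 1 at 7 h) or 2994 (without replicate 1 at 24 h). Between 2632 and 2828 of those calls were also made with all arrays. A gene name was available for part of the array only. On 1 probe set per gene, 2307 of 13356 genes (17.3%) were called, 1075 (8.05%) higher and 1232 (9.22%) lower. At 7459 of the 13356 genes (55.8%, and 58.4% of all probe sets) both arrays at one time lay outside the range of both arrays at the other. Before adjustment, 6952 of the 22746 probe sets had a limma p under 0.05, in either direction. Unadjusted counts for dark shoots stand beside that number.

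**Figure D1:**
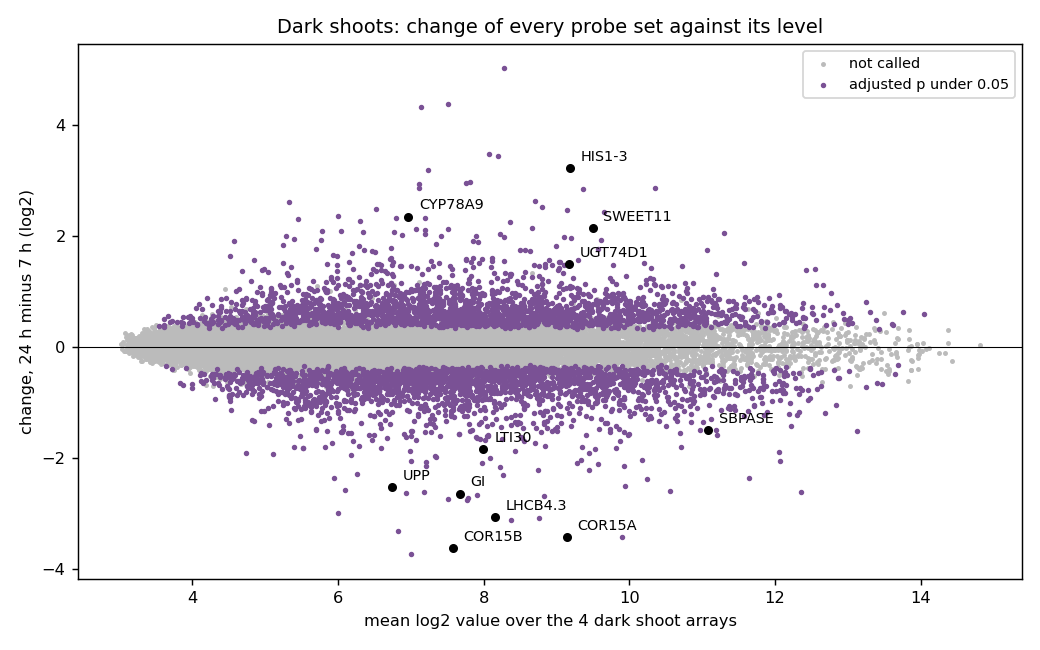
Change between 24 h and 7 h of darkness (log2, vertical axis) against the mean log2 value over the 4 dark shoot arrays (horizontal axis), 1 point per probe set, purple where the adjusted p was under 0.05. The named genes run from COR15B, with a change of -3.63, to HIS1-3, with a change of 3.22, and called probe sets lie on both sides of 0.

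Among genes with a name, the largest rise was that of HIS1-3, a linker histone variant known for its induction by drought and abscisic acid. It read 7.68 and 7.46 at 7 h and 10.61 and 10.98 at 24 h. Both 24 h arrays lay about 3 log2 units above both 7 h arrays, a change of 3.22 (SE 0.25, n = 2 arrays a group here and below, adjusted p = 3.26e-07). CYP78A9, a cytochrome P450 that promotes growth of the fruit, read 5.81 and 5.76 at 7 h and 8.18 and 8.10 at 24 h. Its groups were far apart relative to the spread within each, with a change of 2.35 (SE 0.19, adjusted p = 4.14e-07). SWEET11, a sucrose exporter of the leaf phloem, read 8.51 and 8.33 at 7 h and 10.58 and 10.56 at 24 h, a rise of 2.15 (SE 0.21, adjusted p = 3.3e-06). The remaining 9 of the 12 largest rises were loci without a symbol in the annotation used, with changes from 2.14 for AT1G63420 to 2.96 for AT1G64500. At AT1G64500 the arrays read 6.19 and 6.36 at 7 h and 9.23 and 9.24 at 24 h. AT5G15950 read 5.56 and 5.72 at 7 h and 8.44 and 8.71 at 24 h and AT2G41250 read 7.89 and 8.00 at 7 h and 10.77 and 10.80 at 24 h. In all 3 of these loci the groups stood more than 2 log2 units apart.

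Among genes with a symbol, the next rises included 2 that act on auxin. UGT74D1, which glucosylates auxin, read 8.35 and 8.49 at 7 h and 9.91 and 9.92 at 24 h and rose by 1.50 (adjusted p = 2.01e-05). GH3.17, which conjugates auxin to glutamate, read 6.57 and 6.50 at 7 h and 7.98 and 7.90 at 24 h and rose by 1.41 (adjusted p = 1.15e-06). In both genes the replicates lay close together and the groups far apart. INO80, the ATPase of a chromatin remodelling complex, rose by 1.48 from 8.13 and 8.27 at 7 h to 9.49 and 9.87 at 24 h. AOR, a chloroplast enzyme that reduces reactive carbonyls, rose by 1.48 from 8.00 and 7.91 to 9.56 and 9.30. TIL, a lipocalin that protects membranes against heat and oxidation, rose by 1.25 from 9.61 and 9.71 to 10.96 and 10.85. These 3 genes passed the test at adjusted p of 1.02e-06, 5.74e-05 and 0.0004. The rises of OLEO3 (1.21), an oil body oleosin, and PSY1R (1.103), the receptor of a sulfated growth peptide, were called as well. Also called were EEL (0.98), a bZIP transcription factor of seed maturation, and UPB1 (0.95), a bHLH regulator of peroxidase genes. SP1L2, a microtubule-associated protein of the SPIRAL1 family, had a change of 1.09 at an adjusted p of 0.0157. Its call was lost without replicate 2 at 24 h, replicate 1 at 7 h or replicate 2 at 7 h, where the adjusted p reached 0.111.

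The 2 largest falls among named genes were those of COR15A and COR15B, neighbouring genes that encode chloroplast proteins protecting membranes against freezing. COR15B read 9.11 and 9.66 at 7 h and 5.88 and 5.64 at 24 h and fell by 3.63 on the log2 scale (SE 0.18, adjusted p = 3.98e-09). COR15A read 10.80 and 10.90 at 7 h and 7.50 and 7.36 at 24 h and fell by 3.42 (SE 0.15, adjusted p = 8.4e-10). In both, every 7 h array lay more than 3 log2 units above every 24 h array. LHCB4.3, an isoform of the minor photosystem II antenna protein CP29, read 9.65 and 9.73 at 7 h and 6.75 and 6.49 at 24 h and fell by 3.06 (SE 0.13, adjusted p = 8.4e-10). Of the 12 largest falls, 8 were loci without a symbol, from -3.12 for AT4G30650 to -2.62 for AT3G60420. AT3G60420 has a further probe set near the bottom of the range, at 3.46 to 3.67, which had a change of 0.10 (adjusted p = 0.622).

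Other falls of genes with a symbol crossed several kinds of metabolism. UPP, a uracil phosphoribosyltransferase of pyrimidine salvage, read 7.96 and 8.03 at 7 h and 5.14 and 5.81 at 24 h and fell by 2.52 (adjusted p = 1.08e-07). PMEAMT, a methyltransferase in the synthesis of phosphocholine, read 8.69 and 9.03 at 7 h and 7.18 and 7.36 at 24 h and fell by 1.59 (adjusted p = 3.22e-05). Fes1B, a nucleotide exchange factor of Hsp70 chaperones, read 8.09 and 7.98 at 7 h and 5.99 and 5.96 at 24 h and fell by 2.06 (adjusted p = 4.35e-08). The replicates of Fes1B were nearly equal, while those of UPP lay apart at 24 h. NdhN, a subunit of the chloroplast NADH dehydrogenase-like complex, fell by 1.67 from 7.20 and 7.42 to 5.90 and 5.37 (adjusted p = 2.33e-05). ECS1 read 10.00 and 10.66 at 7 h and 8.54 and 7.91 at 24 h, with wide replicates in both groups, and fell by 2.0996 (adjusted p = 5.32e-05).

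**Figure D2:**
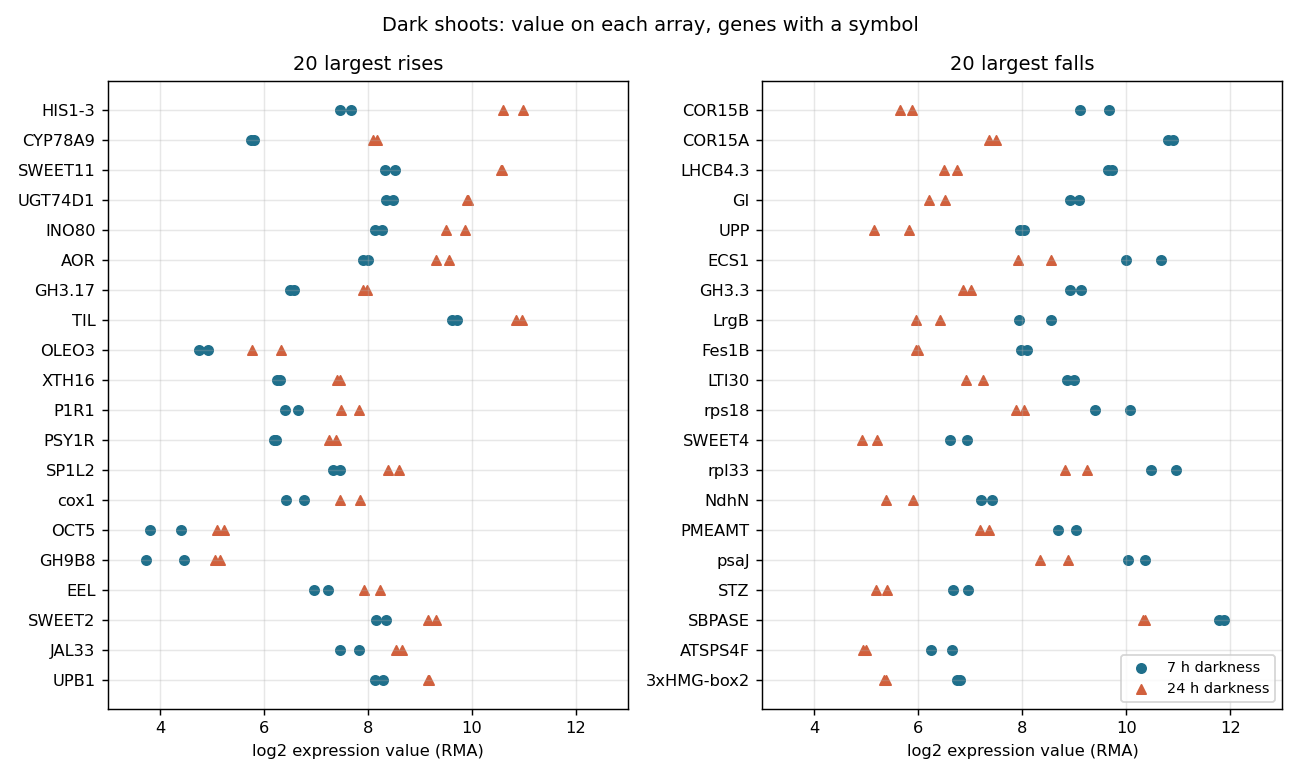
The log2 value on each array (horizontal axis) of the 20 largest rises (left) and 20 largest falls (right) among called genes with a symbol whose groups did not overlap, 7 h arrays as circles and 24 h arrays as triangles. Changes run from 0.95 (UPB1) to 3.22 (HIS1-3) on the left and from -1.42 (3xHMG-box2) to -3.63 (COR15B) on the right.

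Few genes of the circadian clock could be followed, since 6 of the listed clock and clock output genes had a probe set that names them alone. GIGANTEA (GI), an evening gene of the clock that links it to flowering, read 9.08 and 8.91 at 7 h and 6.51 and 6.19 at 24 h. It fell by 2.64 (SE 0.20, adjusted p = 3.26e-07), with both 24 h arrays far below both 7 h arrays. COR27, a clock-controlled gene that is also cold-regulated, read 10.72 and 10.51 at 7 h and 9.77 and 9.74 at 24 h and fell by 0.86 (adjusted p = 0.00141). The locus AT4G33980, on the same list of clock outputs, read 9.12 and 9.10 at 7 h and 7.79 and 7.73 at 24 h and fell by 1.34 (adjusted p = 6.16e-05). AT1G69570, the other listed output, moved upward. Its arrays read 8.17 and 8.05 at 7 h and 10.05 and 10.16 at 24 h, a rise of 1.99 (SE 0.12, adjusted p = 2.71e-08). The morning-list loci AT4G01280 and AT5G52660 had a change of 0.22 and -0.02 (adjusted p = 0.483 and 0.961). In total 4 of the 6 were called, 1 higher and 3 lower, beside 8.05% and 9.22% of all genes.

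Genes of chlorophyll synthesis were lower at 24 h or did not pass the test. Of 8 measured members among 23 listed, 5 fell and none rose, beside 9.22% of all genes lower and 8.05% higher. At an unadjusted limma p under 0.05, 6 were lower and none higher, beside 6952 of all 22746 probe sets in either direction. The median change was -0.56 against a median of 0.02 over all probe sets. PORB, which encodes the light-dependent protochlorophyllide oxidoreductase, read 11.47 and 11.57 at 7 h and 10.09 and 10.25 at 24 h and fell by 1.35 (SE 0.22, adjusted p = 0.000375). HEMB1, the enzyme that forms porphobilinogen, read 10.66 and 10.67 at 7 h and 9.61 and 9.34 at 24 h and fell by 1.19 (SE 0.13, adjusted p = 8.24e-06). For both genes the 7 h arrays were nearly equal and lay above both 24 h arrays by about 1 log2 unit or more. HEME2, a uroporphyrinogen decarboxylase, fell by 0.76 from 9.68 and 9.96 to 9.06 and 9.05 (adjusted p = 0.00264). The falls of CHLI2 (-0.59), a magnesium chelatase subunit, and GSA1 (-0.54), an early enzyme that forms aminolevulinate, were smaller. The call of CHLI2 was lost without replicate 2 at 24 h (adjusted p = 0.0753), and that of GSA1 without replicate 1 at 24 h or replicate 2 at 7 h (adjusted p up to 0.0635). CHLM, a methyltransferase of the pathway, stayed near 11.9 on all 4 arrays with a change of 0.02 (adjusted p = 0.933).

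LHCB4.3, given above, has close relatives among the nuclear photosystem and antenna genes. LHCB4.1 read 13.72 and 13.97 at 7 h and 13.74 and 13.85 at 24 h and had a change of -0.05 (adjusted p = 0.876). LHCB4.2 read 13.46 and 13.29 at 7 h and 13.15 and 12.85 at 24 h and had a change of -0.37 (adjusted p = 0.0681). LHCB4.3 was the one called member among 7 measured of 44 listed, beside 17.3% of all genes called. All 7 had a negative change, and the median was -0.38. The other 6 had changes of -0.39 (PSAN, a photosystem I subunit) to -0.05, and all stood near the top of the measured range, between 12.60 and 13.97.

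In the Calvin cycle, SBPASE, the sedoheptulose bisphosphatase that regenerates the carbon acceptor, read 11.78 and 11.88 at 7 h and 10.31 and 10.35 at 24 h. It fell by 1.49 (SE 0.16, adjusted p = 1.02e-05) with replicates close together in both groups. RCA, which activates Rubisco, read 13.56 and 13.66 at 7 h and 12.90 and 12.87 at 24 h and had a change of -0.72 (adjusted p = 0.0249), and its call was lost without any 1 of the 4 arrays (adjusted p of 0.0785 to 0.128). It was lost as well when the arrays were quantile normalized again (adjusted p = 0.0657) and when the light arrays shared the spread (adjusted p = 0.126). PRK, phosphoribulokinase, read 12.22 and 12.36 at 7 h and 12.58 and 12.57 at 24 h and had a change of 0.28 (adjusted p = 0.582). Of 4 measured photorespiration genes, 3 were called lower, beside 9.22% of all genes. LrgB, the plastid glycolate and glycerate transporter, read 7.94 and 8.56 at 7 h and 6.40 and 5.95 at 24 h and fell by 2.07 (adjusted p = 4.79e-05). The other 2 called were the loci AT1G80380 (-0.71) and AT1G11860 (-0.43). The call of AT1G11860 was lost without replicate 2 at 24 h, replicate 1 at 7 h or replicate 2 at 7 h (adjusted p up to 0.251).

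**Figure D3:**
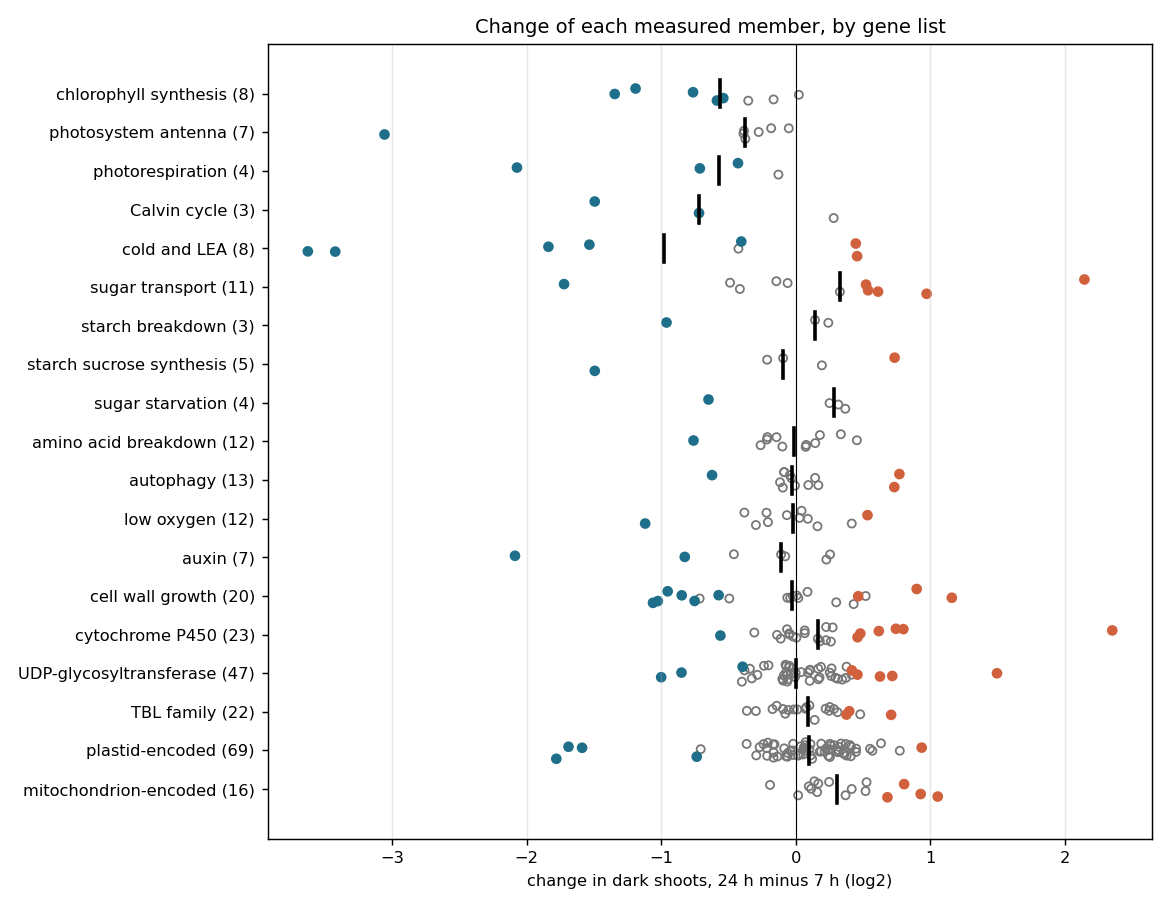
Change between 24 h and 7 h of darkness (log2, horizontal axis) of each measured member of 19 gene lists and families, with the number measured in brackets. Filled points passed an adjusted p of 0.05 (orange higher, blue lower), open points did not, and black bars mark the list's median. The chlorophyll synthesis median stands at -0.56 and the mitochondrion-encoded median at 0.31.

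Cold-regulated and late embryogenesis abundant (LEA) genes encode mostly hydrophilic protective proteins. Of 8 measured members among 31 listed, 5 fell and 2 rose, beside 9.22% of all genes lower and 8.05% higher, and the median change was -0.98. Besides COR15A and COR15B, the dehydrin LTI30 read 8.85 and 8.98 at 7 h and 7.25 and 6.90 at 24 h and fell by 1.84 (SE 0.15, adjusted p = 6.39e-07). The zinc finger repressor STZ, also called ZAT10, read 6.67 and 6.96 at 7 h and 5.39 and 5.18 at 24 h and fell by 1.53 (SE 0.20, adjusted p = 5.8e-05). The dehydrin COR47 stood higher and moved less, at 13.04 and 12.98 at 7 h and 12.58 and 12.63 at 24 h, a change of -0.41 (adjusted p = 0.016). The call of COR47 was lost without any 1 of the 4 arrays (adjusted p of 0.0538 to 0.0997). The called rises were small. M17 rose by 0.45 near the bottom of the range, at 3.49 and 3.46 at 7 h and 3.90 and 3.94 at 24 h, and LEA4-5 by 0.46, from 6.68 and 6.37 to 6.99 and 6.97. M17 lost its call without either replicate 2 (adjusted p up to 0.0556). LEA4-5 lost its call without any 1 array but replicate 1 at 7 h (adjusted p up to 0.347).

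Sugar carriers moved in both directions. Of 11 measured members among 26 listed, 5 rose and 1 fell, beside 8.05% and 9.22% of all genes, and the median change was 0.33. Besides SWEET11, SWEET2, a vacuolar sugar carrier, read 8.16 and 8.34 at 7 h and 9.30 and 9.14 at 24 h and rose by 0.97 (adjusted p = 0.00447). TMT2, which loads sugars into the vacuole, read 7.40 and 7.37 at 7 h and 8.05 and 7.94 at 24 h and rose by 0.61 (adjusted p = 0.00164). SWEET4, a hexose carrier, went the other way. It read 6.94 and 6.61 at 7 h and 4.91 and 5.20 at 24 h and fell by 1.72 (SE 0.15, adjusted p = 9.92e-07). SWEET16, a vacuolar carrier, had a change of 0.54, and SAG29, also called SWEET15, one of 0.52. Their calls were lost without replicate 2 at 24 h, and that of SWEET16 also without replicate 1 at 7 h (adjusted p up to 0.193 and 0.0746). SWEET11 also counts as a phloem marker, and the summed level of the 2 measured phloem markers was 8.49 to 8.66 at 7 h and 10.6 at 24 h. The other measured phloem marker, OPS, read 5.31 and 5.24 at 7 h and 4.89 and 5.55 at 24 h and had a change of -0.05 (adjusted p = 0.922). The 3 measured guard cell lineage markers summed to 6.73 to 6.78 at 7 h and 6.62 to 6.78 at 24 h, and the epidermis marker TRY read 4.35 to 4.51 and 4.58 to 4.80. None of these 4 was called by limma (1 lower at an unadjusted p under 0.05). The part of cell composition in these changes was not tested.

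In starch and sucrose metabolism, ATSPS4F, a sucrose phosphate synthase, read 6.65 and 6.25 at 7 h and 4.99 and 4.92 at 24 h and fell by 1.49 (SE 0.15, adjusted p = 6.56e-06). DPE1, the plastid enzyme that handles maltotriose during starch breakdown, read 8.62 and 8.30 at 7 h and 7.41 and 7.59 at 24 h and fell by 0.96 (adjusted p = 0.000487). SBE2.2, a starch branching enzyme, read 7.72 and 7.92 at 7 h and 8.70 and 8.41 at 24 h and rose by 0.73 (adjusted p = 0.00105). These were the called members among 3 measured genes of starch breakdown and 5 of starch and sucrose synthesis. Over all genes, 8.05% were called higher and 9.22% lower. PWD, a kinase that phosphorylates starch for its breakdown, had a change of 0.24 (adjusted p = 0.283).

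The next 2 lists hold genes associated with carbon starvation, and their calls stand beside 8.05% of all genes higher and 9.22% lower. Of 4 measured sugar starvation genes, none rose after adjustment in limma. At an unadjusted p under 0.05, 3 were higher, beside 6952 of all 22746 probe sets in either direction. EXO, a brassinosteroid-responsive promoter of leaf growth, fell by 0.65 from 12.52 and 12.36 to 11.74 and 11.84 (adjusted p = 0.00707). The call of EXO was lost without replicate 1 at either time (adjusted p up to 0.0689). AKINBETA1, a subunit of the energy-sensing kinase SnRK1, had a change of 0.25, and ATL8, a RING-type ubiquitin ligase gene, one of 0.37. Neither passed the test (adjusted p = 0.147 and 0.102). Of 12 measured amino acid breakdown genes, 1 fell and none rose (1 each way at an unadjusted p under 0.05), and the median change was -0.01. The one called was ETFQO, which passes electrons from branched-chain amino acid breakdown to ubiquinone. It read 11.10 and 11.17 at 7 h and 10.29 and 10.45 at 24 h and fell by 0.76 (SE 0.14, adjusted p = 0.00113). The leucine breakdown genes MCCA, MCCB and IVD had a change of 0.08, 0.18 and -0.26, and stood high at both times, MCCA at 13.3 to 13.5. In submerged shoots over the same interval, where 16.9% of genes were called, 8 of these 12 genes fell and none rose, also at an unadjusted p under 0.05. The difference in change between dark and submerged shoots was called by limma in 2.12% of all genes and in none of the 12. Before adjustment, 6 of the 12 had a limma p under 0.05. The share of all genes at that threshold was not computed for this difference.

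Autophagy genes, which serve the recycling of cell contents, had calls in both directions. Of 13 measured members, 2 rose and 1 fell, against 17.3% of all genes called in dark shoots, with a median change of -0.03. ATG8B, one of the small proteins that coat the autophagosome, read 10.03 and 10.15 at 7 h and 10.83 and 10.88 at 24 h and rose by 0.77 (SE 0.13, adjusted p = 0.000648). The listed locus AT2G37840 rose by 0.73 on its brighter probe set (adjusted p = 0.00499), while its dimmer one had a change of 0.06 (adjusted p = 0.868). ATG8H read 9.41 and 9.51 at 7 h and 8.90 and 8.77 at 24 h and had a change of -0.62 (adjusted p = 0.0084), a call lost without either replicate 2 (adjusted p up to 0.0756). The other 7 measured members of the ATG8 family had changes of -0.09 to 0.14, and none was called. Of the 13 genes, 5 rose in dark roots, where 22.3% of all genes were called, and none fell there, also at an unadjusted limma p under 0.05. The difference in change between shoots and roots, called in 11.4% of all genes, was called in 1 of the 13.

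Low-oxygen genes were examined because the submerged plants were the main object of the study. In dark shoots in air, 1 of 12 measured members rose and 1 fell, where 17.3% of all genes were called, with a median change of -0.02. PDC2, a pyruvate decarboxylase of ethanol fermentation, read 8.68 and 8.78 at 7 h and 7.65 and 7.58 at 24 h and fell by 1.12 (SE 0.17, adjusted p = 0.000268). STR18, a rhodanese-type sulfurtransferase, had a change of 0.53 from 7.02 and 7.03 to 7.63 and 7.48 (adjusted p = 0.00976), and the call was lost without any 1 array except replicate 2 at 24 h (adjusted p up to 0.0905). In submerged shoots, where 16.9% of all genes were called, 9 of the 12 fell between 7 h and 24 h and none rose, also at an unadjusted limma p under 0.05, with a median change of -1.11. In dark roots, where 22.3% were called, 5 rose and 1 fell, with a median change of 0.57. The difference in change was called in 4 of the 12 against roots, all with the lower change in shoots (5.77% of all genes). Against submerged shoots it was called in 2 of the 12, both with the higher change in darkness (0.891% of all genes).

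Genes of growth were called in both directions. Of 20 measured cell wall loosening genes, 6 fell, 3 rose and 11 were not called, beside 9.22% of all genes lower and 8.05% higher, and the median change was -0.03. The expansin EXPA4, one of the proteins that loosen the wall, read 10.50 and 10.24 at 7 h and 9.26 and 9.43 at 24 h and fell by 1.03 (adjusted p = 0.00319). EXPA16 and EXPA15, further expansins, fell by 0.95 and 0.85. The xyloglucan endotransglucosylase gene XTH32 read 6.52 and 6.52 at 7 h and 5.40 and 5.52 at 24 h and fell by 1.06 (adjusted p = 0.00303), whereas XTH16 of the same family read 6.32 and 6.24 at 7 h and 7.41 and 7.47 at 24 h and rose by 1.16 (adjusted p = 0.00113). In both XTH genes the groups did not overlap and lay about 1 log2 unit apart. Of the 9 called wall genes, 4 lost their call without at least 1 array: EXPB3 and EXGT-A3 without any 1 of the 4 (adjusted p up to 0.14 and 0.105), XTH33 without any but replicate 1 at 7 h (up to 0.43) and EXLB1 without replicate 1 at 7 h (0.059). The endoglucanase gene GH9B8 rose by 1.02 from low values, 4.46 and 3.73 to 5.16 and 5.06. Both measured cell cycle genes fell. PRL, the replication licensing factor MCM7, read 6.32 and 6.35 at 7 h and 5.31 and 5.15 at 24 h and fell by 1.101 (adjusted p = 7.94e-05). AUR1, an Aurora kinase of mitosis, read 6.36 and 6.37 at 7 h and 5.30 and 5.61 at 24 h and fell by 0.91 (adjusted p = 0.000572). The mitotic chromosome protein gene 3xHMG-box2, which was on no list, read 6.81 and 6.75 at 7 h and 5.37 and 5.34 at 24 h and fell by 1.42 (adjusted p = 9.99e-06).

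Of 7 measured auxin genes, 2 fell and none rose (3 lower at an unadjusted limma p under 0.05), beside 17.3% of all genes called. GH3.3, an early auxin-response gene that conjugates auxin to amino acids, read 9.12 and 8.92 at 7 h and 7.01 and 6.85 at 24 h and fell by 2.09 (SE 0.25, adjusted p = 2.3e-05). GH3.17 of the same family rose, as given above, and GH3.1 and WES1 (GH3.5) had a change of 0.23 and 0.25 without passing the test. HAT2, an auxin-induced homeobox gene, read 9.96 and 9.91 at 7 h and 9.16 and 9.05 at 24 h and fell by 0.83 (adjusted p = 0.000715). Both measured response regulators of cytokinin signalling were called, in opposite directions. ARR15 read 6.12 and 6.23 at 7 h and 5.15 and 5.04 at 24 h and fell by 1.08 (adjusted p = 3.21e-05), and RR16 (ARR16) read 6.40 and 6.52 at 7 h and 7.33 and 7.23 at 24 h and rose by 0.83 (adjusted p = 0.000638). The gibberellin receptor genes GID1A, GID1B and GID1C had a change of -0.30, 0.19 and 0.17, and none was called by limma (1 lower at an unadjusted p under 0.05).

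Of 32 listed light signalling genes 2 were measured, and both rose, beside 8.05% of all genes higher. FHL, which carries phytochrome A into the nucleus, read 7.32 and 7.48 at 7 h and 8.28 and 8.19 at 24 h and rose by 0.84 (adjusted p = 0.000737). HYH, a homologue of the photomorphogenesis factor HY5, read 4.13 and 3.97 at 7 h and 4.90 and 4.60 at 24 h, near the bottom of the range. It rose by 0.70 (adjusted p = 0.00219). In sulfur assimilation, SIR, the sulfite reductase gene, read 9.91 and 9.80 at 7 h and 9.13 and 9.08 at 24 h and fell by 0.75 (SE 0.12, adjusted p = 0.000236). APS3, an ATP sulfurylase gene, had a change of -0.64 (adjusted p = 0.0174), and its call was lost without any 1 of the 4 arrays (adjusted p of 0.0518 to 0.113). Of 4 measured flavonoid genes, 2 rose, both of them glycosyltransferases. UGT78D2, which glucosylates flavonols and anthocyanidins, read 6.35 and 6.01 at 7 h and 6.92 and 6.88 at 24 h and had a change of 0.72, and UGT78D1, a flavonol rhamnosyltransferase, read 6.08 and 5.57 at 7 h and 6.57 and 6.34 at 24 h and had a change of 0.63. Both calls were lost without replicate 1 at 24 h, replicate 2 at 24 h or replicate 2 at 7 h (adjusted p up to 0.129 and 0.367).

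Among 7 measured senescence genes 1 was called each way, beside 17.3% of all genes, and both calls were lost without at least 1 array. SAG29 is given above. WRKY53, a transcription factor that promotes leaf senescence, read 5.60 and 6.06 at 7 h and 4.95 and 5.24 at 24 h and had a change of -0.74 (adjusted p = 0.0465), a call lost without any 1 array except replicate 1 at 7 h (adjusted p up to 0.324). EIN3, an ethylene signalling factor of the same list, had a change of 0.23 (adjusted p = 0.174).

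The plastid genome gave 69 measured genes, of which 4 fell and 1 rose, beside 9.22% of all genes lower and 8.05% higher. The median change of the 69 was 0.10. The labelling kit starts from the poly(A) tail, which most organelle transcripts carry briefly or not at all, so these levels were not set against those of nuclear genes. The 3 largest falls belonged to genes with consecutive locus tags. The photosystem I subunit gene psaJ read 10.03 and 10.36 at 7 h and 8.34 and 8.87 at 24 h and fell by 1.59 (SE 0.31, adjusted p = 0.00153). The ribosomal protein gene rpl33 read 10.47 and 10.96 at 7 h and 8.81 and 9.24 at 24 h and fell by 1.69 (SE 0.21, adjusted p = 3.21e-05). Next to it, rps18, for another ribosomal protein, read 9.40 and 10.07 at 7 h and 7.88 and 8.04 at 24 h and fell by 1.78 (SE 0.26, adjusted p = 0.000149). In all 3 both 24 h arrays lay below both 7 h arrays. The measured genes on either side were not called. petG, for a small cytochrome b6f subunit, had a change of 0.77 (adjusted p = 0.369), and rpl20, for a ribosomal protein, one of 0.29 (adjusted p = 0.703). The remaining 2 called genes were ndhH (-0.74), of the NADH dehydrogenase-like complex, and petN (0.94), of the cytochrome b6f complex. The call of ndhH was lost without replicate 1 at 24 h or replicate 2 at 7 h (adjusted p up to 0.359), and that of petN without replicate 2 at 24 h (adjusted p = 0.0554).

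Plastid-encoded genes differed between replicates as well. At 7 h replicate 2 was above replicate 1 in 67 of the 69 genes, by a median of 0.48, and at 24 h in 64 of the 69, by a median of 0.43. Over all 13356 genes the share with the higher value in replicate 2 was 43.1% at 7 h and 50.0% at 24 h. At psaJ, rpl33 and rps18 replicate 2 was also above replicate 1 at both times, and each 24 h array was below the lower 7 h array. The part of this offset in the plastid calls was not tested.

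**Figure D4:**
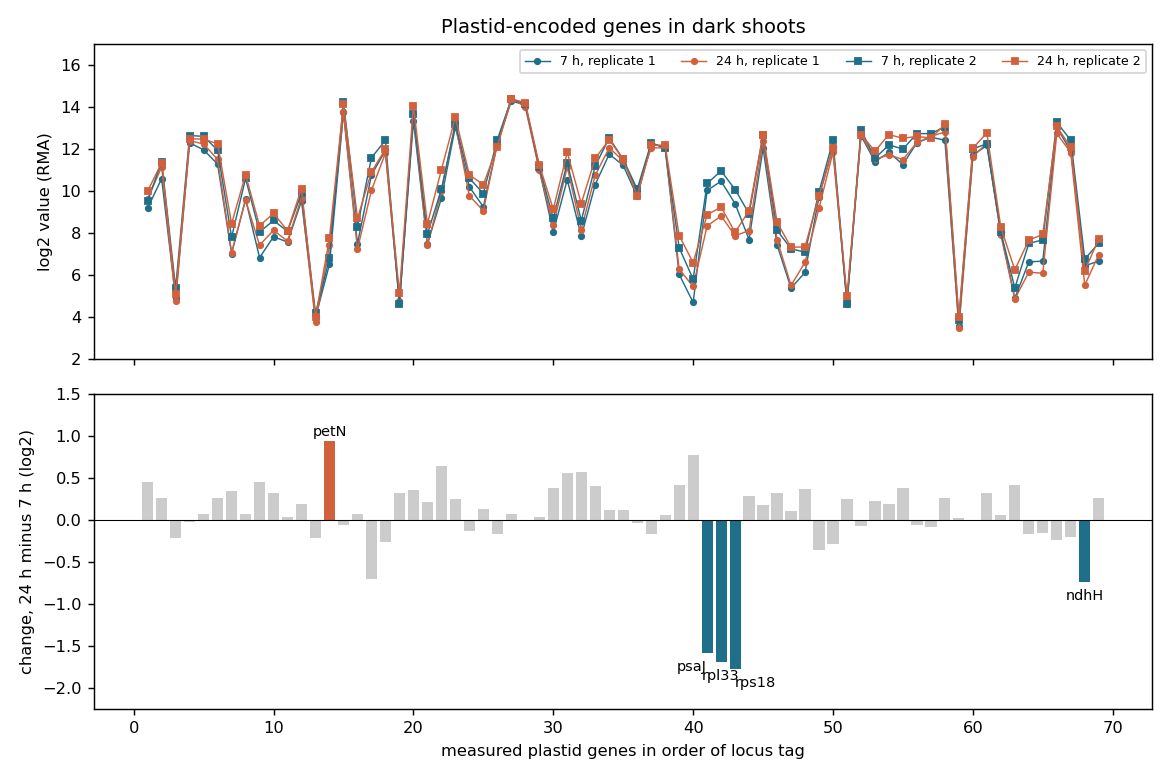
The 69 measured plastid-encoded genes in order of locus tag (horizontal axis). The upper panel shows the log2 value on each of the 4 dark shoot arrays, and the lower panel the change between 24 h and 7 h (log2), coloured where the adjusted p was under 0.05. The neighbouring genes psaJ, rpl33 and rps18 had changes of -1.59, -1.69 and -1.78.

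Of 16 measured mitochondrion-encoded genes, 4 rose and none fell, beside 8.05% of all genes higher and 9.22% lower. At an unadjusted limma p under 0.05, 6 were higher and none lower, beside 6952 of all 22746 probe sets in either direction. The median change was 0.31. cox1, a subunit of cytochrome c oxidase, read 6.43 and 6.76 at 7 h and 7.45 and 7.84 at 24 h and rose by 1.06 (adjusted p = 0.00486). Its call was lost without replicate 2 at 24 h or replicate 1 at 7 h (adjusted p up to 0.0714). nad5 and nad9, subunits of complex I, were called as well. nad5 read 4.73 and 4.54 at 7 h and 5.46 and 5.67 at 24 h and rose by 0.93, and nad9 read 4.13 and 4.14 at 7 h and 4.87 and 5.01 at 24 h and rose by 0.81. ccb203, for cytochrome c maturation, rose by 0.68. Of the 16, 12 stayed below a log2 value of 6 on all 4 arrays, and cox1, nad4, orfX and ccb382 did not.

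Dark roots harvested at the same 2 times shared part of the change. They came from the same kind of plant under the same treatment, on arrays of their own. Between 7 h and 24 h, 5517 probe sets (24.3%) were called in roots, or 3572 without replicate 1 at 24 h. Of the 2172 probe sets higher at 24 h in dark shoots, 739 were also called higher in roots, which is 34.0% of the shoot calls and 29.9% of the 2471 root calls of that direction. Another 129 were called lower in roots. Of the 2307 lower in shoots, 990 were also lower in roots (42.9% of the shoot and 32.5% of the root calls) and 108 were higher. The background share in roots was 10.9% higher and 13.4% lower. Across probe sets the 2 changes correlated at r = 0.35, as a description over probe sets that share a normalization and base composition and are not independent.

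The change over time was itself compared between shoots and roots, and 2897 probe sets (12.7%) differed, 6.74% with the higher and 6% with the lower change in shoots. Over genes these shares were 5.59% and 5.77%. Leaving out 1 array of either organ gave 1844 to 2615 calls, the lowest without replicate 1 of dark roots at 24 h, followed by 1861, 1891 and 1925 without replicate 2 at 24 h, replicate 1 at 24 h and replicate 2 at 7 h of dark shoots. HIS1-3 rose in both organs, by 3.22 in shoots and 3.62 in roots, a difference of -0.40 (SE 0.35, adjusted p = 0.543). SWEET11 rose in both organs and more so in roots, by 3.59 there (difference -1.44, adjusted p = 0.00412). GI fell in both and further in shoots, with a change of -1.52 in roots (difference -1.13, adjusted p = 0.018). COR15B, COR15A and LHCB4.3, which fell in shoots, stood near the bottom of the range in roots at both times. COR15B read 4.28 and 4.31 there at 7 h and 4.57 and 4.56 at 24 h, COR15A 4.61 and 4.41 and then 4.31 and 4.18, and LHCB4.3 5.14 and 5.47 and then 5.12 and 5.20. At such levels a fall like that in shoots could not have been measured, so these differences do not show that roots responded otherwise. The differences in change were -3.90, -3.16 and -2.92 (adjusted p = 6.13e-07, 6.13e-07 and 6.13e-07). CYP78A9 and GH9B8 moved in opposite directions, rising in shoots and falling in roots by 0.85 and 1.56 (adjusted p of the difference = 3.99e-06 and 3.75e-05).

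Submerged shoots harvested at the same times shared part of the change as well. Between 7 h and 24 h, 4448 probe sets (19.6%) were called in submerged shoots, 2795 without replicate 2 at 24 h and 2730 without replicate 2 at 7 h. Of the 2172 probe sets higher in dark shoots, 1138 were also higher under water, which is 52.4% of the dark calls and 52.4% of the 2173 submerged calls of that direction. Of the 2307 lower in dark shoots, 1209 were also lower under water (52.4% of the dark and 53.1% of the submerged calls). Opposite calls numbered 31 and 29. The changes correlated at r = 0.665 across probe sets, again over probe sets that are not independent. Over genes, 8.01% were called higher and 8.89% lower under water. The 2 changes differed in 570 probe sets (2.51%), and over genes 0.891% had the higher and 1.23% the lower change in darkness. The count of probe sets lay between 231 and 562 when 1 array was left out. Among submerged arrays, 302, 310 and 348 remained without replicate 2 at 24 h, replicate 2 at 7 h and replicate 1 at 7 h. That count was 231, 257, 289 and 370 without replicate 2 at 24 h, replicate 2 at 7 h, replicate 1 at 24 h and replicate 1 at 7 h of dark shoots.

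Among the genes above, CYP78A9, LHCB4.3 and GI changed in submerged shoots by 2.296, -2.37 and -2.95, and none of these changes was called different from that in darkness (adjusted p = 0.963, 0.0636 and 0.722). The differences were 0.06, -0.70 and 0.31, with SEs of 0.26, 0.19 and 0.29. COR15B was called different (difference -3.26, adjusted p = 8.21e-06), but under water it already read 5.41 and 4.91 at 7 h, near the bottom of the range, and 4.64 and 4.95 at 24 h. A fall as large as the one in darkness could not have been measured from there. GH3.3 fell in darkness, while under water it read 6.64 and 5.78 at 7 h and 6.32 and 5.99 at 24 h, below both dark times (difference -2.04, adjusted p = 0.00487). ECS1 fell in darkness and rose by 0.85 under water (difference -2.95, adjusted p = 0.000532). IAA29, an auxin-responsive repressor, read 10.20 and 10.25 at 7 h and 9.70 and 9.84 at 24 h in darkness, a change of -0.46 that did not pass the test, and rose by 2.39 under water (difference -2.85, adjusted p = 5.88e-05). NdhN and SWEET4 fell in darkness and were called different (adjusted p = 0.00874 and 0.000675), though at 7 h under water they read 5.95 and 6.15, and 5.12 and 4.98, near their 24 h values in darkness.

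**Figure D5:**
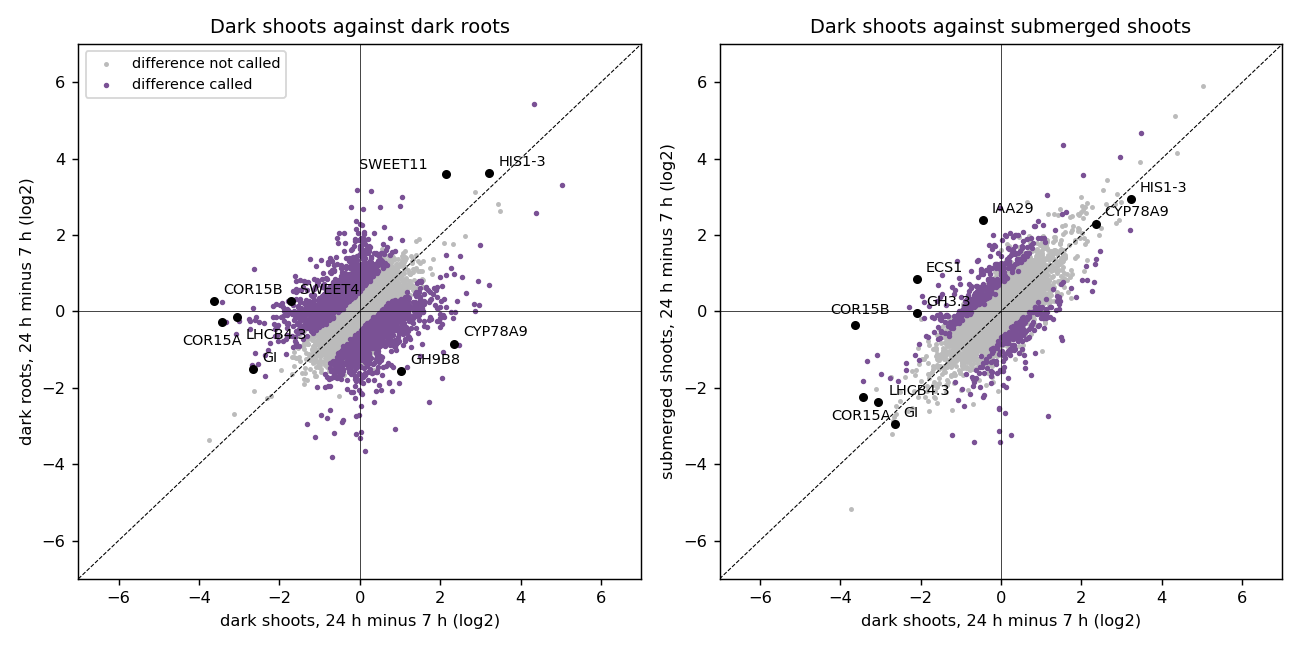
Change between 24 h and 7 h (log2) in dark shoots (horizontal axes) against that in dark roots (left) and submerged shoots (right), 1 point per probe set, purple where the 2 changes differed at an adjusted p under 0.05. The dashed line marks equal change. Purple points number 2897 on the left and 570 on the right.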

How the data were processed

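The deposited values were log2 expression values, 1 per probe set and array, made by the authors with RMA in the affy package, per the submitters' processing notes; versions are not given in the sources used here. RMA corrects background, quantile normalizes all arrays together and summarizes probes, so values are relative to the whole series and low levels are compressed. Biotin-labelled cRNA was made from 500 ng of total RNA. Each group had 2 arrays, from independent replicate experiments. Precision is limited by that number.

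Of 22810 probe sets, 64 controls were left out. limma 3.58.1 (R 4.3.3) was fitted with 1 mean per group over the 16 darkened and submerged arrays, with 8 residual degrees of freedom and a prior worth 7.725. Changes were tested with two-sided moderated tests, Benjamini-Hochberg adjusted over 22746 probe sets, and called at an adjusted p under 0.05. Light arrays were not used, except in 1 alternative for the spread. On simulated data of 22746 genes, limma recovered 20 of 60 changes of 0.5 log2, 65 of 72 of 1 and 67 of 68 of 2, with 8 false calls. Far fewer genes were changed there than the 4479 probe sets called in the data. The adjustment depends on that number, so recovery in the data may differ.

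Platform annotation gave 1 gene for 13513 probe sets, several for 503 and none for 8730. Of the 13513, 13436 matched RefSeq (TAIR10.1) by locus. The probe set with the highest mean represented each gene. Named genes were the 12 largest rises and falls with non-overlapping arrays, all measured clock genes, up to 4 called members per list with the largest changes, and the 5 largest differences each way from roots and from submerged shoots. Gene families, the 20 largest rises and falls with a symbol, and uncalled list members were added after the values were seen. The members and lists were chosen with earlier results of these data known.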

Additional observations from a re-analysis of the deposited data

Results flagged for a closer look

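The change over 24 h against 7 h of darkness was tested for a difference between shoots and roots, and 2897 probe sets differed. The 5 largest differences upward, given as the shoot change minus the root change on the log2 scale, were AT1G62510 (3.81), AT5G01740 (3.35), AT5G62340 (3.31), CYP78A9 (3.20) and AT1G64500 (2.78). Dark shoots had a change of 2.06 and roots one of -1.75 at AT1G62510. AT5G62340 lay near the bottom of the range on every dark shoot array, at 4.19 and 4.58 at 7 h and 4.34 and 4.41 at 24 h, while roots read 10.31 and 10.41 at 7 h and 7.07 and 7.01 at 24 h, so a fall of that size could not have been measured in shoots. The 5 largest differences downward were COR15B (-3.90), AT3G60420 (-3.72), COR15A (-3.16), LHCB4.3 (-2.92) and AT2G36145 (-2.75). AT2G36145 read 9.23 and 9.25 at 7 h and 6.61 and 6.53 at 24 h in dark shoots and 4.69 to 5.14 in roots, near the bottom of the range, as COR15B and COR15A did there.

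The same test between dark and submerged shoots gave 570 probe sets. The 5 largest differences upward, as the dark change minus the submerged change, were AT4G15680 (3.39), scpl23 (3.07), AT4G15660 (2.76), BGLU45 (2.41) and AT1G48750 (2.06). AT4G15680 read 8.33 and 8.82 at 7 h and 8.85 and 8.26 at 24 h in darkness, a change of -0.02, and had a change of -3.41 under water. scpl23, a member of the serine carboxypeptidase-like family, read 4.87 to 5.12 on all dark shoot arrays, near the bottom of the range, and had a change of -3.12 under water. The 5 largest downward were COR15B (-3.26), ECS1 (-2.95), IAA29 (-2.85), AT3G22060 (-2.40) and GH3.3 (-2.04). AT3G22060 read 6.97 and 7.84 at 7 h and 4.96 and 5.28 at 24 h in darkness and had a change of 0.12 under water.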

How the results depend on the processing

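Under 8 alternatives (other arrays sharing the spread, the replicate block, a variance trend, a filter on low values, another normalization) the count of 4479 changed probe sets in dark shoots ranged from 4184 to 4782, with 2033 to 2405 higher and 2123 to 2463 lower. Over probe sets that name 1 gene the counts were 2232 in all, 1043 higher and 1189 lower, 1456 for the difference from roots and 266 for that from submerged shoots, since fewer probe sets were tested. With a 2-fold minimum they were 693, 314, 379, 1100 and 300, since small changes no longer counted. Leaving out 1 array, which leaves a lone array assumed to vary like the other groups, gave 2728 to 2994 changed probe sets in dark shoots, 1318 to 1439 higher and 1410 to 1596 lower. It gave 3572 to 4370 in dark roots, 2730 to 3503 in submerged shoots, 1844 to 2615 for the difference from roots and 231 to 562 for that from submerged shoots. With the replicate number as a block the counts were 4482 (2175 higher and 2307 lower), 5509, 4379, 2860 and 559 in the same order. Over all probe sets and 28 pairs of groups the correlation of deviations of same-numbered arrays was -0.108 to 0.141, 2 of them over 0.1, and -0.023 for dark shoots, so the numbers were not taken to pair the samples. Plastid-encoded genes were an exception in dark shoots, with replicate 2 above replicate 1 in 67 of 69 at 7 h and 64 of 69 at 24 h. Of 158 called genes in the lists and families or named, 57 lost their call without at least 1 array, 17 under another setting apart from the 2-fold minimum, and none changed sign. The 17 include RCA, AT1G11860, LEA4-5, SP1L2, WRKY53, XTH33, EXPB3, UGT78D1, BGLU42 and ndhH. The cause of these losses was not tested. With 2 arrays a group, changes of 0.5 log2 were often missed in simulated data, so an uncalled gene is not shown to be level.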

Other observations

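Gene families whose members carry a symbol gave further measured genes. Of 47 UDP-glycosyltransferase genes, 5 rose and 3 fell in dark shoots, beside UGT74D1 the cytokinin glucosyltransferase genes UGT76C1 (0.46) and UGT76C2 (0.42) among the rises. UGT85A4 read 7.49 and 7.68 at 7 h and 6.79 and 6.38 at 24 h and fell by 1.00 (adjusted p = 0.000148). Of 23 cytochrome P450 genes, 6 rose and 1 fell. CYP71B34 read 7.23 and 7.63 at 7 h and 8.35 and 8.11 at 24 h and rose by 0.80 (adjusted p = 0.00216), and CYP71B5 rose by 0.74 from 5.78 and 6.06 to 6.72 and 6.60. Of the 8 glycosyltransferase calls, 6 were lost without at least 1 array: those of UGT78D1 and UGT78D2, given above, and of UGT76C1, UGT76C2, UGT76E11 and UGT76E12 (adjusted p up to 0.0623, 0.21, 0.0501 and 0.197). So were 4 of the 7 cytochrome P450 calls, those of CYP71B28, CYP71B37, CYP79A2 and the 1 fall, CYP71B22 (adjusted p up to 0.0955, 0.22, 0.154 and 0.14). Over all genes 8.05% were called higher and 9.22% lower.

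Of 20 beta-glucosidase genes, 3 fell and 2 rose, and both rises, BGLU33 and BGLU40, were lost without at least 1 array (adjusted p up to 0.134 and 0.0623). BGLU44 read 9.82 and 9.71 at 7 h and 8.80 and 8.78 at 24 h and fell by 0.98 (adjusted p = 8.91e-05). BGLU25 fell by 0.96 and BGLU42 by 0.77, the latter not called when the light arrays shared the spread. Of 22 TBL genes, whose family includes acetyltransferases of cell wall polysaccharides, 3 were called higher and none lower by limma. At an unadjusted p under 0.05 they were 6 and 1, beside 6952 of all 22746 probe sets in either direction. TBL37 read 8.79 and 8.99 at 7 h and 9.61 and 9.59 at 24 h and rose by 0.71 (adjusted p = 0.00164), and the calls of TBL16 and TBL39 were lost without any 1 of the 4 arrays. Of 12 ubiquitin-conjugating enzyme genes, 2 were higher and 3 lower, and UBC20, UBC28 and UBC30 lost their call without at least 1 array (adjusted p up to 0.175, 0.0864 and 0.112). UBC29 read 8.71 and 8.82 at 7 h and 8.05 and 7.87 at 24 h and fell by 0.81 (adjusted p = 0.00172). PUB25, a ubiquitin ligase gene, read 7.07 and 6.94 at 7 h and 7.92 and 7.66 at 24 h and rose by 0.79, the 1 call among 9 PUB genes. These shares stand beside 17.3% of all genes called.

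The probe sets with the largest changes carried no gene name in the annotation used. Probe set 261569_at read 5.75 and 5.79 at 7 h and 10.88 and 10.72 at 24 h, a rise of 5.03 (SE 0.16, adjusted p = 1.84e-11). Its change was 3.31 in dark roots and 5.90 in submerged shoots. Probe set 249606_at read 5.20 and 4.74 at 7 h and 9.26 and 9.35 at 24 h, a rise of 4.33, with 5.42 in roots and 5.12 in submerged shoots. The largest fall was at 252265_at, which read 8.73 and 9.02 at 7 h and 5.23 and 5.04 at 24 h, a change of -3.74. Of the 42 rises of at least 4-fold, 23 had no single gene name, and of the 40 such falls, 18 had none.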
